A study of Zea mays with 12 samples.

Results

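The fermentation enzymes of the imbibed maize embryo were taken as the genes that carry 1 of 3 enzyme numbers in the KEGG orthology column of the expression table, K18857 for class-P alcohol dehydrogenase (ADH), K01568 for pyruvate decarboxylase (PDC) and K00016 for lactate dehydrogenase (LDH). This selected 15 of the 33589 genes listed, 3 for ADH, 10 for PDC and 2 for LDH. Of these, 10 passed the filter on low expression and were tested, and the other 5 are given by their read counts.

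Fermentation keeps glycolysis running when mitochondria cannot take up all of its products. PDC removes the carboxyl group of pyruvate and leaves acetaldehyde, and ADH reduces acetaldehyde to ethanol, which returns NADH to NAD+. LDH returns NAD+ in a single step by reducing pyruvate to lactate. In maize, ADH and PDC genes are well known for their induction in roots kept without oxygen, and ADH1 is the enzyme that scutellum and pollen also hold in air. Oxygen enters an imbibing kernel slowly, so that germinating cereal seeds are known to form ethanol before the root emerges.

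The study compared embryos of 2 inbred maize lines, line 102 (Ji853), which is sensitive to low temperature, and line 55 (Zao8-3), which is resistant. Seeds of both lines took up water at 25 °C for 6 h and were then kept on wet paper for 2 h at 10 °C (LT) or at 25 °C (CT), and RNA was taken from embryos dissected out of them. The 4 groups, LT_102, CT_102, LT_55 and CT_55, were each sampled in 3 biological replicates, so that 12 poly(A) libraries were sequenced. Each line is a single inbred line, so a difference between resistance classes and a difference between these lines cannot be told apart.

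Library totals were between 44028579 and 67873652 counts, and no pair of libraries was identical. The embryo label was checked with 9 genes described as oleosin, steroleosin, vicilin or globulin-1, whose summed FPKM ran from 13380 to 18432 in LT_102, from 17747 to 19139 in CT_102, from 9711 to 11649 in LT_55 and from 9839 to 11046 in CT_55. FPKM scales a read count by transcript length and by library size. The 29 zein genes, which mark endosperm, summed to between 3.02 and 7.36 in LT_102, between 1.51 and 2.10 in CT_102, between 27.1 and 36.3 in LT_55 and between 25.4 and 43.3 in CT_55. All 5 zeins that could be tested were lower in line 102 at both temperatures. By the threshold given below, the lower side held 26.1% of all tested genes at 10 °C and 23.8% at 25 °C. The zeins zp15, pco155483 and LOC100127498 passed the filter through line 55 alone, so that a difference was built into their entry. Only zp16 and LOC606401 reached the filter level in libraries of both lines. Of the 29, 9 had no count in LT_102 and 14 had none in CT_102, against 3 in LT_55 and 2 in CT_55. The part of the zein difference in the differences between the lines given here was not tested. Library LT_55 replicate 3 stood apart on the second principal component, at 62.4 against −43.2 to 29.7 for the others, and values that rest on it are given with and without it. The library numbered 3 was also the highest of its group there in LT_102 (29.7), CT_102 (−8.20) and CT_55 (26.75), and the cause was not tested.

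The 15 genes covered a wide range of levels. By mean FPKM over the 12 libraries, adh1 stood at 582 and ranked 226 of all 33589 genes, followed by pdc3 at 141, pdc2 at 28.4 and pdc1 at 9.21. The remaining members past the filter lay between 0.568 and 1.58, close to the filter itself, an FPKM of 0.5 or more in 3 or more libraries. In every library adh1 made up 98.6% to 99.8% of the summed FPKM of the ADH genes. For PDC, pdc3 contributed 73.2% to 81.7% of the sum in every library. The ethanol branch therefore stood far above the lactate branch in these transcripts. ADH genes summed to 417 ± 57.0 FPKM in LT_102, 551 ± 116 in CT_102, against 705 ± 204 in LT_55 and 666 ± 126 in CT_55 (mean ± SD, n = 3 libraries per group, as for all such values here). PDC genes summed to 127.6 ± 9.31 FPKM in LT_102 and 159.8 ± 14.8 in CT_102, against 217 ± 42.9 in LT_55 and 221 ± 36.4 in CT_55. LDH genes summed to 1.36 ± 0.171 FPKM in LT_102 and 2.27 ± 0.603 in CT_102, against 1.20 ± 0.504 in LT_55 and 1.39 ± 0.520 in CT_55. These sums are a description and were not tested. In whole embryos, fewer cells that express a gene and less RNA per cell cannot be told apart.

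**Figure D1:**
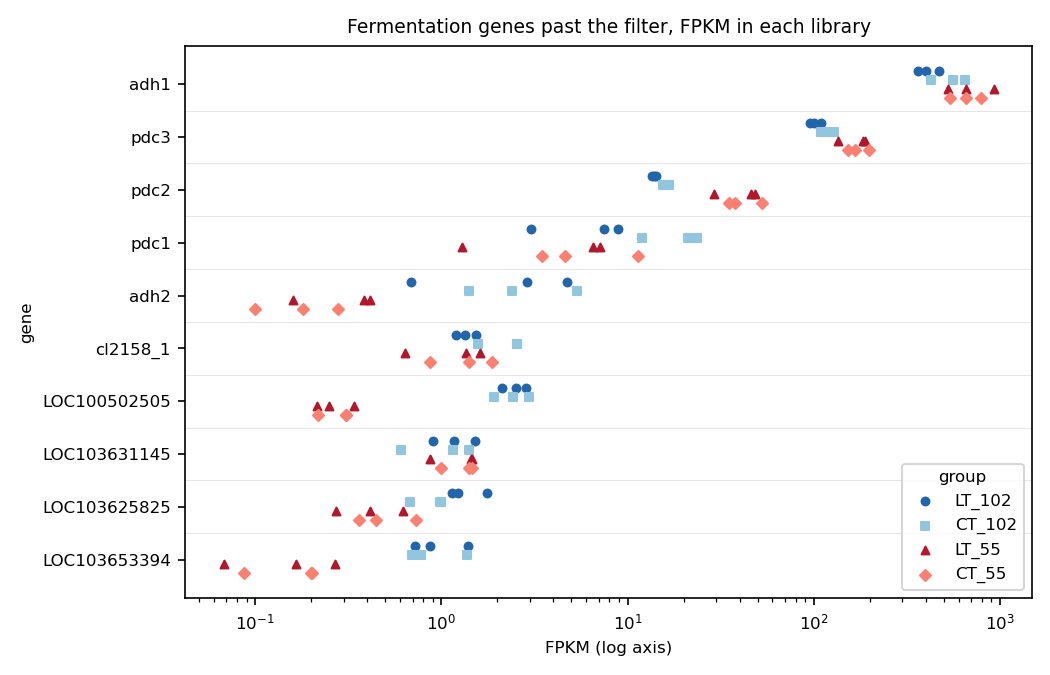
FPKM (log axis) of the 10 fermentation genes past the filter in each of the 12 libraries, with 1 symbol per library and 1 row per group within each gene. The genes adh1 and pdc3 stand above the others in every library. For adh2, LOC100502505 and LOC103653394 all 6 libraries of line 102 lie above all 6 of line 55. These genes passed the filter through line 102 alone, so that a difference was built into their entry. For pdc2 and pdc3 all 6 libraries of line 102 lie below all 6 of line 55.

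The first question was how the sensitive and the resistant line differed at each temperature. Between the lines a gene counted as called when it differed 1.5-fold or more in either direction and its unadjusted p-value was below 0.05, the threshold of the study, here applied to the quasi-likelihood F test of edgeR. At 10 °C (LT_102vsLT_55), 7 of the 10 tested members were called, 4 higher in line 102 (adh2, LOC100502505, LOC103653394 and LOC103625825) and 3 lower (adh1, pdc2 and pdc3). Among all 22985 tested genes 51.1% were called, 25.1% higher and 26.1% lower, so that a call was common for any gene in this comparison. At 25 °C (CT_102vsCT_55), 5 members were called, 4 higher (adh2, LOC100502505, LOC103653394 and pdc1) and 1 lower (pdc2), where 48.1% of all tested genes were called, 24.3% higher and 23.8% lower. The median log2 fold change of the 10 members was 0.24 at 10 °C and 0.66 at 25 °C, and that of all tested genes was 0.0030 and 0.010. The members on the higher side were the weakly expressed ones, apart from pdc1, and the members on the lower side were the 3 most abundant ones. The genes adh2, LOC100502505 and LOC103653394 passed the filter through line 102 alone and LOC103625825 mostly through it. A difference was therefore built into their entry, and neither the counts of calls nor the medians give support beyond the separate values. Reads of both lines were mapped to the B73 genome, and a difference in level and a difference in how well the reads of a line map cannot be told apart.

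The second question was what 2 h at 10 °C did within each line, and here a gene was called at a Benjamini-Hochberg adjusted p-value under 0.05 over all tested genes. In line 102, edgeR called 0 of the 10 members, where it called 0.679% of all tested genes, and DESeq2 called 0 members and 3.79% of all genes. An unadjusted p-value under 0.05 was reached by 1 member (pdc1) and by 13% of all tested genes. In line 55, edgeR called 0 members and 0.0522% of all genes, and DESeq2 called 0 members and 0.654%. There 0 members and 4.43% of all genes had an unadjusted p-value under 0.05. The interaction asks whether the response to temperature differed between the lines, and edgeR called 0 members and 0.00435% of all genes for it. DESeq2 called 0 members and 0.566% of all genes, and 0 members and 6.33% of all genes had an unadjusted p-value under 0.05 in edgeR. The lowest Benjamini-Hochberg adjusted p-values of the members (edgeR) were 0.282 in line 102, 1.0 in line 55 and 0.851 for the interaction. The median log2 fold change of the members was −0.19 in line 102, −0.039 in line 55 and −0.20 for the interaction, against 0.0081, 0.0026 and −0.0020 over all tested genes. The summed zein level given above did not overlap between LT_102 and CT_102, and its part in these values was not tested.

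**Figure D2:**
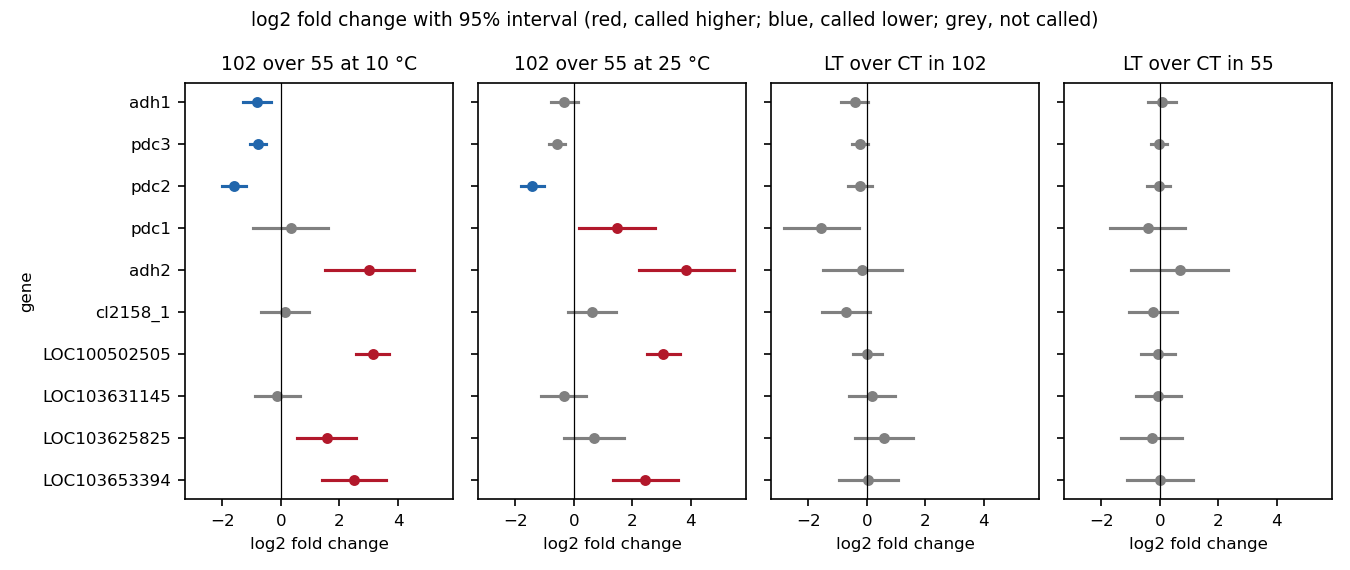
Log2 fold change with its 95% interval (points and horizontal lines) for the 10 tested fermentation genes in 4 comparisons, line 102 over line 55 at 10 °C and at 25 °C, and LT over CT in line 102 and in line 55. Red marks a gene called higher, blue a gene called lower and grey a gene not called. The calls are all in the panels that compare the lines, and the intervals are widest for adh2 and pdc1.

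The gene adh1 encodes the alcohol dehydrogenase that maize genetics has used as a marker of the anaerobic response, and lies on chromosome 1 (278821306 to 278824958, minus strand, B73 RefGen_v4). Its FPKM in LT_102 was 402, 474 and 364 in the libraries numbered 1, 2 and 3. In CT_102 it was 563, 652 and 426. In LT_55 it was 660, 525 and 925, and in CT_55 it was 542, 658 and 793. The LT_102 libraries all lay below the LT_55 libraries, while at 25 °C the lines overlapped. The group means fell in the order LT_55 (703 ± 204), CT_55 (664 ± 126), CT_102 (547 ± 114) and LT_102 (413 ± 55.9). At 10 °C adh1 was lower in line 102, with a log2 fold change of −0.82 (SE 0.21, edgeR with Benjamini-Hochberg adjusted p = 0.00513). Without LT_55 replicate 3, its highest library, the log2 fold change was −0.54 and no longer reached the fold threshold, with an unadjusted p of 0.0139. At 25 °C the log2 fold change was −0.33, with a 95% interval of −0.79 to 0.13, and adh1 was not called. The neighbours in the order that were compared directly did not separate beyond their spread. LT over CT was −0.41 in line 102 (interval −0.87 to 0.056) and 0.079 in line 55 (interval −0.38 to 0.54). The difference of these responses was −0.49 (interval −1.14 to 0.17), and −0.22 without LT_55 replicate 3.

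The gene adh2, on chromosome 4 (14333228 to 14336526, plus strand), encodes the second ADH subunit of maize, which can form dimers with itself or with the ADH1 subunit. Its FPKM was 4.75, 2.88 and 0.691 in LT_102 and 2.40, 5.38 and 1.40 in CT_102. In line 55 it was 0.416, 0.159 and 0.386 in LT_55 and 0.180, 0.277 and 0.0993 in CT_55. Every library of line 102 lay above every library of line 55 although the libraries of line 102 spread widely, with the library numbered 3 the lowest at both temperatures. Behind these values stood 38 to 278 counts in line 102 and 6 to 25 counts in line 55. At 10 °C adh2 was 8.09-fold higher in line 102 (log2 fold change 3.02, SE 0.70, edgeR with Benjamini-Hochberg adjusted p = 0.00236). At 25 °C it was 14.4-fold higher (log2 fold change 3.85, SE 0.74, edgeR with Benjamini-Hochberg adjusted p = 0.000713). Temperature gave −0.15 in line 102 (interval −1.51 to 1.20) and 0.68 in line 55 (interval −0.97 to 2.33), intervals wide enough to hold changes of more than 2-fold. Thus the scarce ADH gene stood higher in line 102 where the abundant one, at 10 °C, stood lower. As adh1 and adh2 are related in sequence and adh1 is far more abundant, reads of one that were assigned to the other would weigh most in adh2, and how the authors treated such reads is not given in the sources used here.

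The third ADH gene, LOC103631145, lies on chromosome 6 (77184549 to 77187244, minus strand) and has no gene name in the table. Its FPKM was 0.904, 1.52 and 1.17 in LT_102, 1.41, 1.15 and 0.607 in CT_102, against 1.47, 0.867 and 1.45 in LT_55 and 1.0005, 1.41 and 1.45 in CT_55. The 4 groups overlapped and LOC103631145 was called in no comparison. Line 102 over line 55 was −0.12 at 10 °C (interval −0.90 to 0.65) and −0.35 at 25 °C (interval −1.13 to 0.43).

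**Figure D3:**
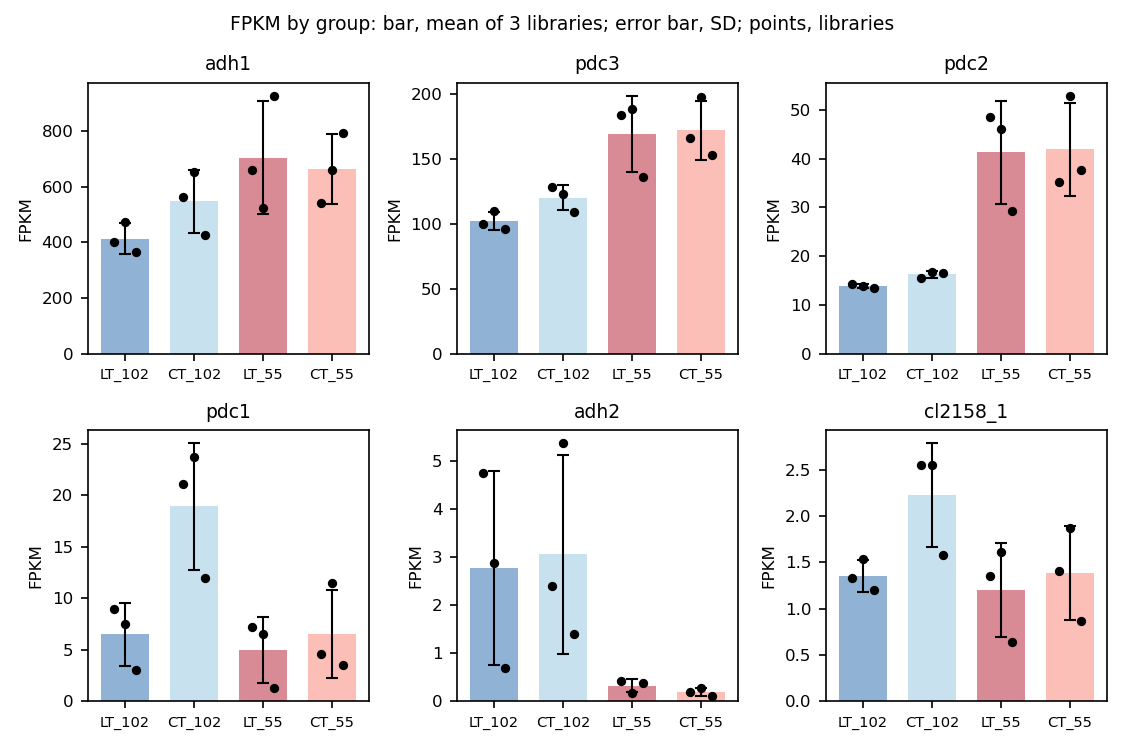
FPKM of 6 fermentation genes in the groups LT_102, CT_102, LT_55 and CT_55. Bars are means of 3 libraries, error bars are SDs and points are single libraries. The genes adh1, pdc3 and pdc2 have their lowest mean in LT_102, pdc1 and cl2158_1 have their highest in CT_102, and adh2 is low in both groups of line 55.

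Among the PDC genes, pdc3 was the most abundant, on chromosome 1 (45725859 to 45729020, minus strand). Its FPKM was 99.9, 110.0 and 96.1 in LT_102 and 127.96, 123 and 109 in CT_102. In line 55 it was 183, 188 and 136 in LT_55 and 166, 197 and 153 in CT_55. Both groups of line 102 lay entirely below both groups of line 55. At 10 °C pdc3 was lower in line 102, with a log2 fold change of −0.77 (SE 0.12, edgeR with Benjamini-Hochberg adjusted p = 0.000165). At 25 °C the log2 fold change was −0.57 (SE 0.12), just short of the fold threshold, with an adjusted p of 0.00171 (edgeR, Benjamini-Hochberg). It passed that threshold, at −0.59 to −0.64, when CT_102 replicate 1 or 2 or CT_55 replicate 1 or 3 was left out. LT over CT was −0.24 in line 102 (interval −0.51 to 0.033) and −0.034 in line 55 (interval −0.30 to 0.24). Neither response was called.

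The gene pdc2, on chromosome 8 (15983285 to 15986685, minus strand), gave the clearest difference between the lines among the abundant members. Its FPKM was 14.3, 13.9 and 13.5 in LT_102 and 15.5, 16.8 and 16.6 in CT_102. In line 55 it was 48.6, 46.1 and 29.2 in LT_55 and 35.2, 52.9 and 37.8 in CT_55. The 6 libraries of line 102 lay within a narrow range far below the 6 of line 55. At 10 °C pdc2 was lower in line 102 by a log2 fold change of −1.61 (SE 0.19, edgeR with Benjamini-Hochberg adjusted p = 1.11e-05), that is 3.05-fold. At 25 °C it was lower by −1.41 (SE 0.19, edgeR with Benjamini-Hochberg adjusted p = 3.49e-05), that is 2.66-fold. As a share of the PDC sum, pdc2 held 10.2% to 11.5% in LT_102, 9.15% to 11.7% in CT_102, 17.5% to 20.2% in LT_55 and 17.0% to 20.1% in CT_55. The response to temperature was −0.23 in line 102 (interval −0.64 to 0.17) and −0.035 in line 55 (interval −0.43 to 0.36).

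The gene pdc1, also on chromosome 8 (121126340 to 121128813, plus strand), was the member with the strongest movement with temperature. Its FPKM was 8.89, 7.48 and 3.04 in LT_102 and 21.0, 23.7 and 11.97 in CT_102. In line 55 it was 7.16, 6.50 and 1.29 in LT_55 and 4.60, 11.4 and 3.47 in CT_55. The LT_102 libraries all lay below the CT_102 libraries, and the groups of line 55 overlapped. The library numbered 3 was the lowest in each of the 4 groups. LT over CT in line 102 was −1.55 (SE 0.59, interval −2.84 to −0.26), with an unadjusted p of 0.0225 and an adjusted p of 0.282 (edgeR, Benjamini-Hochberg), and was not called. With the replicate number as a block it was −1.64 with an adjusted p of 0.0474 (edgeR, Benjamini-Hochberg) and passed the threshold. In line 55 the value was −0.41 (interval −1.69 to 0.87), and the difference of the responses was −1.14 (interval −2.95 to 0.66), so that a response particular to line 102 was not shown. Between the lines pdc1 was higher in line 102 at 25 °C, with a log2 fold change of 1.48 (SE 0.59, unadjusted p = 0.0278, edgeR with Benjamini-Hochberg adjusted p = 0.0469). This call did not hold when some single libraries were left out. There the edgeR p-value rose past 0.05 while the log2 fold change stayed past the fold threshold. The call was lost without CT_102 replicate 1 (log2 fold change 1.42, unadjusted p = 0.0597) or replicate 2 (1.28, unadjusted p = 0.0795). It was also lost without CT_55 replicate 1 (1.29, unadjusted p = 0.0908) or replicate 3 (1.18, unadjusted p = 0.0934). At 10 °C the log2 fold change was 0.34 (interval −0.94 to 1.62) and pdc1 was not called, and without LT_55 replicate 3 the value was −0.10.

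Of the 7 other genes with the PDC number, 3 passed the filter, and all 3 stood near an FPKM of 1. LOC100502505, on chromosome 10 (111791676 to 111794351, plus strand), is listed as a transcribed pseudogene in the RefSeq gene table and is described in the expression table as a pentatricopeptide repeat-containing protein, which is not a PDC. Its FPKM was 2.84, 2.51 and 2.12 in LT_102, 2.96, 2.44 and 1.92 in CT_102, against 0.250, 0.341 and 0.214 in LT_55 and 0.309, 0.307 and 0.216 in CT_55. It was the most sharply separated member, 8.82-fold higher in line 102 at 10 °C (log2 fold change 3.14, SE 0.26, edgeR with Benjamini-Hochberg adjusted p = 5.27e-07) and 8.30-fold higher at 25 °C (3.05, SE 0.26, edgeR with Benjamini-Hochberg adjusted p = 7.63e-07). LOC103653394, on chromosome 4 (73769583 to 73773437, minus strand), is annotated with PDC activity. Its FPKM was 0.873, 0.718 and 1.38 in LT_102, 0.781, 0.693 and 1.37 in CT_102, against 0.165, 0.268 and 0.0679 in LT_55 and 0.202, 0.200 and 0.0876 in CT_55. Its log2 fold change was 2.50 (SE 0.51, edgeR with Benjamini-Hochberg adjusted p = 0.000948) at 10 °C and 2.45 (SE 0.51, edgeR with Benjamini-Hochberg adjusted p = 0.00125) at 25 °C. The library numbered 3 was its highest in both groups of line 102 and its lowest in both groups of line 55. LOC103625825, on chromosome 5 (5129370 to 5141301, plus strand), carries the PDC number but is annotated with calcium and phospholipid binding, which are not properties of this enzyme. Its FPKM was 1.75, 1.14 and 1.22 in LT_102, 0.682, 0.994 and 0.990 in CT_102, against 0.273, 0.626 and 0.415 in LT_55 and 0.447, 0.735 and 0.361 in CT_55, from no more than 40 counts in any library. It was higher in line 102 at 10 °C (log2 fold change 1.56, SE 0.47, edgeR with Benjamini-Hochberg adjusted p = 0.0115) and was not called at 25 °C (0.70, interval −0.32 to 1.72). None of the 3 was called between the temperatures in either line, where their log2 fold changes lay between −0.27 and 0.59.

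The remaining 4 PDC-numbered genes did not reach the filter. LOC103643551 on chromosome 1 carries a second orthology number, K18835, beside that of PDC. It had at most 20 counts in a library and counts in 9 of the 12 libraries, and it overlaps LOC103643550 on the opposite strand. Its mean FPKM was 0.189 ± 0.0661 in LT_102 and 0.203 ± 0.0517 in CT_102, against 0.0458 ± 0.0481 in LT_55 and 0.0387 ± 0.0670 in CT_55. LOC103634444 on chromosome 7, annotated as pyruvate decarboxylase 3, had at most 4 counts and was counted in 6 libraries. LOC103642047 on chromosome 10 had at most 9 counts, in 6 libraries, and LOC103649915 on chromosome 3, whose annotation is a methyltransferase, had at most 4 counts, in 8 libraries. Low counts in the table favoured some values, and over all genes and libraries a count of 4 was listed 11889 times, against 2353 times for 3 and 1784 times for 5. The cause was not tested, and no upper limit is given for a count of 0 in these genes. Without the filter none of the 4 genes was called in the 5 comparisons.

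Both LDH genes lie on chromosome 5, at 69327618 to 69329420 (cl2158_1, plus strand) and 69417500 to 69418768 (LOC100193279, plus strand). The FPKM of cl2158_1, annotated as an L-lactate dehydrogenase, was 1.33, 1.54 and 1.20 in LT_102, 2.55, 2.55 and 1.58 in CT_102, against 1.35, 1.61 and 0.639 in LT_55 and 1.41, 1.88 and 0.867 in CT_55. The 3 LT_102 libraries lay below the 3 CT_102 libraries, if only just, and the library numbered 3 was again the lowest of each group. LT over CT was −0.70 in line 102 (interval −1.52 to 0.11) and −0.22 in line 55 (interval −1.04 to 0.59), and neither was called. Line 102 over line 55 was 0.62 at 25 °C (interval −0.19 to 1.43) and 0.14 at 10 °C (interval −0.68 to 0.96), and neither passed the test. With the replicate number as a block the value at 25 °C was 0.66, with an unadjusted p of 0.0367 (edgeR), and cl2158_1 was called. LOC100193279 was counted in 2 libraries only, with 16 counts in CT_102 replicate 2 and 4 counts in CT_55 replicate 2, and was listed at 0 in all others.

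Several genes around the pyruvate branch point were read in the same way, from lists drawn up by enzyme number with earlier results of these data known. The pyruvate dehydrogenase complex, which converts pyruvate to acetyl-CoA in mitochondria and plastids, had 22 of 23 genes tested. Of these, 5 were higher and 8 lower in line 102 at 10 °C and 5 higher and 7 lower at 25 °C. The median log2 fold changes of the complex were −0.034 and −0.039. Its E1 beta subunit gene LOC542483 had 270 ± 27.8 FPKM in LT_102 and 1441 ± 117 in LT_55 (log2 fold change −2.47, SE 0.10, edgeR with Benjamini-Hochberg adjusted p = 2.63e-09). In the opposite direction, pco128534b, a plastid E2 component, had 29.9 ± 1.96 FPKM in LT_102 and 0.724 ± 0.0975 in LT_55 (log2 fold change 5.30). LOC100283889, an E1 alpha subunit, was also higher in LT_102 (log2 fold change 1.31), and LOC103635712 was lower (−1.72). Aldehyde dehydrogenases and acetyl-CoA synthetase, which carry acetaldehyde on to acetate and acetyl-CoA, had 8 of 9 genes tested, with 0 higher and 3 lower at both temperatures and medians of −0.28 at 10 °C and −0.098 at 25 °C. The aldehyde dehydrogenase LOC100285809 had 1.23 ± 0.363 FPKM in LT_102 and 9.98 ± 3.68 in LT_55, and LOC100382449 had 46.9 ± 5.06 FPKM in LT_102 and 122.9 ± 23.1 in LT_55. Pyruvate kinase, which makes the pyruvate, had 11 of 14 genes tested, with 2 higher and 6 lower at 10 °C and 1 higher and 4 lower at 25 °C, and medians of −0.68 and −0.38. Its gene umc2053 had 143 ± 5.80 FPKM in LT_102 and 399 ± 30.2 in LT_55, and pco109318 had 10.9 ± 0.414 in LT_102 and 24.8 ± 6.52 in LT_55. On the higher side, LOC100272999 had 6.15 ± 1.20 FPKM in LT_102 and 2.35 ± 0.546 in LT_55 (log2 fold change 1.34), and pco139502b had 3.65 ± 0.287 in LT_102 and 1.89 ± 0.360 in LT_55 (log2 fold change 0.90). Class III and cinnamyl alcohol dehydrogenases, which act on other alcohols, had 8 of 13 genes tested, with 0 higher and 4 lower at 10 °C and 0 higher and 5 lower at 25 °C, and medians of −0.71 and −0.69. The class III gene LOC100193894 had 0.263 ± 0.131 FPKM in LT_102 and 2.03 ± 0.654 in LT_55, and cad1 had 0.0320 ± 0.0303 FPKM in LT_102 and 4.23 ± 0.482 in LT_55. Both genes passed the filter through the resistant line alone, and LOC103635712 of the pyruvate dehydrogenase complex mostly through it. A difference was therefore built into their entry. The lower calls and the medians of the class III and cinnamyl list include LOC100193894 and cad1. The shares of all tested genes called, given above, apply to these lists as well. Between the temperatures 1 gene of these lists was called, the pyruvate kinase LOC100191614, lower in LT_102 than in CT_102 (log2 fold change −1.37, SE 0.21, edgeR with Benjamini-Hochberg adjusted p = 0.0224).

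A further list held whole protein families with members known to rise when plants lack oxygen. These were sucrose synthase, alanine aminotransferase, glutamate decarboxylase, plant cysteine oxidase and hemoglobins, with 24 of 30 genes tested. Of these, 6 were higher and 7 lower in line 102 at 10 °C and 7 higher and 5 lower at 25 °C, with medians of 0.034 and 0.11, and the shares called lay near those over all tested genes given above. The list had 0 genes called between the temperatures in either line, with medians of −0.29 in line 102 and −0.073 in line 55. The alanine aminotransferase LOC100193705, an enzyme that stores pyruvate as alanine, had 7.71 ± 2.35 FPKM in LT_102 and 54.6 ± 14.9 in LT_55 (log2 fold change −2.87, SE 0.27, edgeR with Benjamini-Hochberg adjusted p = 1.45e-06). The cysteine oxidase LOC100193573 had 0 counts in the 3 LT_102 libraries and 68 to 145 in the LT_55 libraries, and no fold is given. The gene pco071634b, described as a hemoglobin-like protein HbO, had 1.55 ± 0.143 FPKM in LT_102 and 0.135 ± 0.0585 in LT_55 (log2 fold change 3.44). Of this list, LOC100193573 passed the filter through line 55 alone, and pco071634b and the alanine aminotransferase LOC100279149 through line 102 alone. A difference was built into their entry as well.

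The non-symbiotic hemoglobin LOC541815 is set beside pdc1 because CT_102 was its highest group as well, a choice made after its values were seen. Its FPKM was 28.3, 22.7 and 7.06 in LT_102, 114, 112 and 48.3 in CT_102, against 0, 4.60 and 0 in LT_55 and 31.3, 23.7 and 2.67 in CT_55. In line 55 these came from counts of 0, 22 and 0 in LT_55 and 105, 104 and 12 in CT_55. The fold changes below that involve LT_55 therefore rest on 1 library of that group. The library numbered 3 was the lowest, or at 0 with another, in each group, while the order of the libraries numbered 1 and 2 differed from that of pdc1 in CT_102, LT_55 and CT_55. The log2 fold change of line 102 over line 55 was 3.59 at 10 °C (SE 1.10, edgeR with Benjamini-Hochberg adjusted p = 0.0127) and 2.19 at 25 °C (unadjusted p = 0.0312, edgeR with Benjamini-Hochberg adjusted p = 0.0518), both past the threshold used between the lines. LT over CT was −2.24 in line 102 and −3.63 in line 55, and neither was called (edgeR, Benjamini-Hochberg adjusted p = 0.311 and 0.633). The part of the replicate number in these values was not tested for either gene beyond the block.

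**Figure D4:**
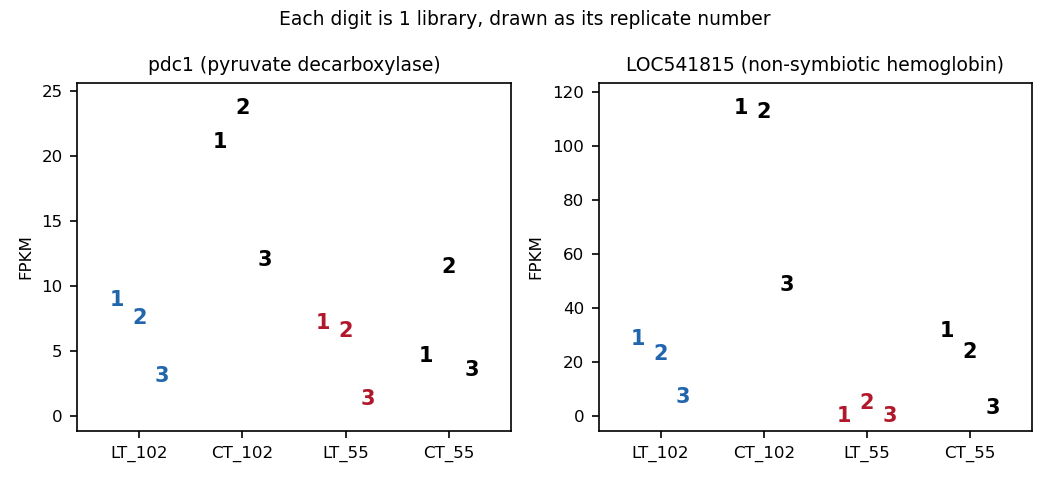
FPKM of pdc1 (left) and of the non-symbiotic hemoglobin LOC541815 (right) in the groups LT_102, CT_102, LT_55 and CT_55, each library drawn as its replicate number. In both genes CT_102 holds the 3 highest libraries and the library numbered 3 is the lowest of its group, or at 0 together with number 1 for LOC541815 in LT_55.

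For the most abundant gene of each enzyme, the genes with the most similar pattern were looked up by the mean absolute difference of gene-centred log2(FPKM + 0.1) over the 12 libraries, among 19344 genes whose mean FPKM was 1 or more. For adh1 these were umc1110, a phosphoglycerate kinase of glycolysis, at 0.110 and the uncharacterized pco062309 at 0.113, where adh1 itself deviated from its mean by 0.317 on average and the median distance over all genes was 0.459. The mean FPKM of umc1110 was 170 in LT_102, 194 in CT_102, 280 in LT_55 and 268 in CT_55, an order of groups that adh1 shares. For pdc3 they were LOC100282393, a cysteine-type peptidase, at 0.0646 and LOC103653403, a SMAX1-like protein, at 0.0679, against a deviation of 0.309 for pdc3 and a median distance of 0.460. For cl2158_1 they were IDP157 at 0.122 and LOC111043195 at 0.159, both uncharacterized, against a deviation of 0.374 and a median distance of 0.505. These distances mix the difference between the lines with the spread of libraries and are a description.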

How the data were processed

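Total RNA of embryos was made into poly(A) libraries, and the authors mapped reads to B73 RefGen_v4. The submitters' processing notes name HISAT, StringTie and edgeR without version or role. The authors deposited 1 table with a raw read count per gene and library. The deposited table also holds FPKM values, normalized by the authors to transcript length and library size. Genes that reached FPKM 0.5 in 3 or more libraries were tested on counts with edgeR 4.0.16 (glmQLFit, TMM, R 4.3.3), with 4 groups in 1 model. SEs are the log2 fold change divided by the root of F, and 95% intervals use the t quantile. The procedure was tested on simulated data. The 15 members and all lists were chosen with earlier results of these data known. Members past the filter are given by library, the others by counts. Each other list is shown by the called genes with the largest changes at 10 °C, at most 2 per direction, plus LOC100191614, the only one called between temperatures. Of 15 members, 9 had a symbol in a RefSeq gene table (NAM-5.0), which was used for gene types and to number the chromosomes. Gene symbols and coordinates are those of the deposited table. Alternatives covered filters, scaling, DESeq2 1.42.0, limma 3.58.1, thresholds, the replicate block and single libraries left out. Plots used matplotlib 3.10.9 and tables pandas 2.3.3 in Python 3.11.15. The GWAS, phenotypes and qRT-PCR were not analysed here.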

Additional observations from a re-analysis of the deposited data

How the results depend on the processing

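The 7 members called at 10 °C became 5 when an absolute log2 fold change of 1 was asked for. They became 6 at a filter of FPKM 1, which left LOC103653394 untested, and 6 without LT_55 replicate 3, where adh1 was lost. The count stayed at 7 under the other alternatives run, except with both line 55 libraries numbered 3 left out, an alternative added after the data were seen, where it was 6. At 25 °C the 5 calls ranged from 4 (filter of FPKM 1) to 6. The count was 6 with the replicate block, with limma on log2(FPKM + 0.1), or with both line 55 libraries numbered 3 left out. With single libraries left out it stayed at 5, although pdc3 took the place of pdc1 in 4 of the 12 cases. In all 4 the library left out was of CT_102 or CT_55, the groups compared. With the replicate block, LT over CT in line 102 called 1 member in place of 0 (pdc1), and 1 as well at an unadjusted p-value. The replicate block also called cl2158_1 at 25 °C (log2 fold change 0.66) and changed no other call. Same-numbered libraries deviated together with correlations from −0.0522 to 0.289 (mean 0.0334), and 2 of 18 pairs were over 0.1. Both of these were pairs of LT_55 with CT_55, at 0.19 for number 2 and 0.289 for number 3. Differently numbered pairs of these groups ran from −0.272 to 0.104. The main model held no block, and the part of the replicate number was not tested beyond the block given here. The uncalled values of 3 members at 10 °C changed sign. With single libraries left out, LOC103631145 ran from −0.33 to 0.052, pdc1 from −0.10 to 0.70 and cl2158_1 from −0.14 to 0.42, and with both line 55 libraries numbered 3 left out they were 0.022, −0.10 and −0.14; the cause was not tested. On limma's log2(FPKM + 1) scale the folds of genes near FPKM 1 were smaller by construction, 1.35 for adh2 and 0.76 for LOC103653394 at 10 °C. Of the alternatives for single members, 649 kept direction and call, 9 gained a call, 8 lost one and 8 changed sign. This tally left out temperature and interaction values smaller than their SE, which change sign most easily. It includes runs that changed only a threshold or left out a library outside the groups compared. The count of 649 is therefore no measure of stability. Replicates are biological by the labels, and 3 per group limit what the temperature tests can detect.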
